A study of Saccharomyces cerevisiae with 72 samples.

Results

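The genes described here encode the anaphase-promoting complex (APC/C) of budding yeast together with its activators and an inhibitor. They are 10 genes chosen by name, CDC20, CDH1, ACM1, APC1, APC2, APC11, CDC16, CDC23, CDC26 and CDC27, of 6857 genes in a table of Yox1 strains and 6865 genes in a table of Yhp1 strains. All 10 are listed in both tables and all passed the filter on low values, a mean of at least 1 TPM in a table, where TPM scales reads to transcript length and library size. Their levels were measured by RNA sequencing in 72 libraries, 3 for each of 24 strain-by-time groups, to ask which genes respond when the homeodomain repressors Yox1 and Yhp1 are acutely overexpressed. TPM carry no read totals, so depth is unknown and error was judged from the 3 libraries of a group.

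The APC/C is a ubiquitin ligase that marks mitotic proteins for destruction. CDC20 encodes the activator that turns the complex on at the metaphase to anaphase transition, when securin is destroyed and sister chromatids separate. CDH1 encodes the activator that takes over in late mitosis and G1, and ACM1 encodes a protein that binds Cdh1 and inhibits it. The subunit genes encode a scaffold (APC1), the cullin and RING pair that forms the catalytic core (APC2 and APC11), tetratricopeptide repeat subunits (CDC16, CDC23 and CDC27) and a small stabilising subunit (CDC26).

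All 8 strains were haploid MATa, carried ura3delta0, his3delta1, lypdelta0 and can1delta::STE2pr-SpHIS5, and expressed the estradiol-activated transcription factor Z3EV constitutively from the ACT1 promoter. In the 4 inducible strains, Z3EVp_YOX1, Z3EVp_yox1_9A, Z3EVp_YHP1 and Z3EVp_yhp1_13A, the Z3EV-responsive promoter Z4pr drove a 3V5-tagged allele of the repressor, either wild type or with its Cdk1 phosphorylation sites mutated (yox1-9A, yhp1-13A). In the 4 matched controls, ctrl_YOX1, ctrl_yox1_9A, ctrl_YHP1 and ctrl_yhp1_13A, the same tagged allele stayed under its own promoter and Z4pr was placed at HO. Cultures were asynchronous, grew in YM-1 with 2% dextrose, and were sampled at 0, 20 and 60 min of 1 μM estradiol, with n = 3 described as biological replicates. An induction value below is the log2 change of an inducible strain from 0 min minus the log2 change of its control, on the log2(TPM + 1) scale, which understates the change of low genes. A gene was called where limma gave a Benjamini-Hochberg adjusted p under 0.05 over all tested genes and the log2 difference exceeded 0.58 either way (1.5-fold). The repressors themselves were induced as labelled: YOX1 averaged 1182 TPM in Z3EVp_YOX1 and 604 TPM in Z3EVp_yox1_9A at 20 min, against 30.6 and 21.3 TPM in the same strains at 0 min, and YHP1 averaged 851 TPM in Z3EVp_YHP1 and 846 TPM in Z3EVp_yhp1_13A at 20 min, against 22.1 and 21.2 TPM at 0 min.

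Each member is a single coding exon in the R64 annotation, and none overlaps another annotated gene. CDC20 (YGL116W) lies at chrVII:289809-291641 on the plus strand, CDH1 (YGL003C) at chrVII:492474-494174 on the minus strand and ACM1 (YPL267W) at chrXVI:38169-38798 on the plus strand. Much of the account turns on CDC20, so a stretch upstream of its start codon is shown, in which capitals mark letters that match short cores searched on both strands in the 500 bases before the start codon: CCNNNNNNGG for Mcm1, the MADS-box factor with which Yox1 and Yhp1 bind DNA, TAAATA or TAAACA for forkhead factors, and TAATTA for homeodomain proteins. The sequence was read from the RefSeq genome of the same R64 build and is written 5′ to 3′ on the coding strand. The CDC20 stretch (chrVII:289479-289549, plus strand, 330 to 260 bases before the start codon) holds an Mcm1 core, a forkhead core and a homeodomain core in that order.
CDC20: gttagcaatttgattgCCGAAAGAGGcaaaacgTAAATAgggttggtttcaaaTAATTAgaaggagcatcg
The cores are short and common. CCNNNNNNGG was present in 49.2% of 6000 promoters of this length and in 4 of the 10 members, TAATTA in 24.6% of promoters and only CDC20 among the members, TAAACA in 40.1% and 3 members, and TAAATA in 58.3% and 8 members. An Mcm1 core, a homeodomain core and either forkhead core lay within 60 bases of each other in 28 promoters (0.467%), and CDC20 was the only member among them. This combination is the one seen upstream of CDC20, and neither it nor the span was set in advance, so the share is no test. The 500 bases were taken whatever gene lay there, so a match can fall in or beyond a neighbouring gene. Examples are the Mcm1 cores of CDC26 (from 273 and 272 bases before the start codon, gap to the next gene 202 bases). Others are the TAAATA matches of CDC23 (from 481 and 379 bases, gap 291 bases). A match is a description of letters and not of binding.

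CDC20 and ACM1 were the members that fell after induction of Yox1 or Yox1-9A, and CDH1 and the 7 subunit genes were not called in any induction. In these bulk, asynchronous cultures, fewer cells at a stage and less RNA per cell cannot be told apart. At 20 min of Yox1, 2 of the 10 members (CDC20 and ACM1) were called lower, beside 2.40% of 6255 tested genes called lower and 2.56% called either way. At 60 min of Yox1, 1 of 10 (ACM1) was called lower, beside 2.38% of genes called lower and 2.75% either way. With Yox1-9A, CDC20 and ACM1 were both called lower at 20 min, beside 2.17% of genes called lower and 2.35% either way. They were called again at 60 min of Yox1-9A, beside 3.18% of genes called lower and 4.33% either way. With Yhp1, limma called 0 members at 20 min, where 0.0803% of 6230 genes were called lower and 0.0963% either way, and 0 members at 60 min, where 0.0642% were called lower and 0.0803% either way. No member had an unadjusted p under 0.05 with Yhp1 at either time. With Yhp1-13A, limma called 0 members at 20 min (1 with an unadjusted p under 0.05), where 0.337% of genes were called lower and 0.353% either way. At 60 min of Yhp1-13A it called 0 members (2 with an unadjusted p under 0.05), where 0.482% were called lower and 0.498% either way. The values at 20 and 60 min of a pair share their 0 min libraries. In the Yhp1-13A induction at 60 min, where the replicate numbers pair the libraries, a fit with the replicate number as a block called 48 genes in place of 31, and still 0 members. The numbers also pair the libraries at 60 min of Yhp1, where that block called 0 members too. Intervals and p-values of members at these times come from the fit without the block. The median log2 value over the 10 members ran from -0.08 at 60 min of Yhp1 to 0.11 at 60 min of Yox1-9A, beside medians over all tested genes of -0.05 and 0.13.

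**Figure D1:**
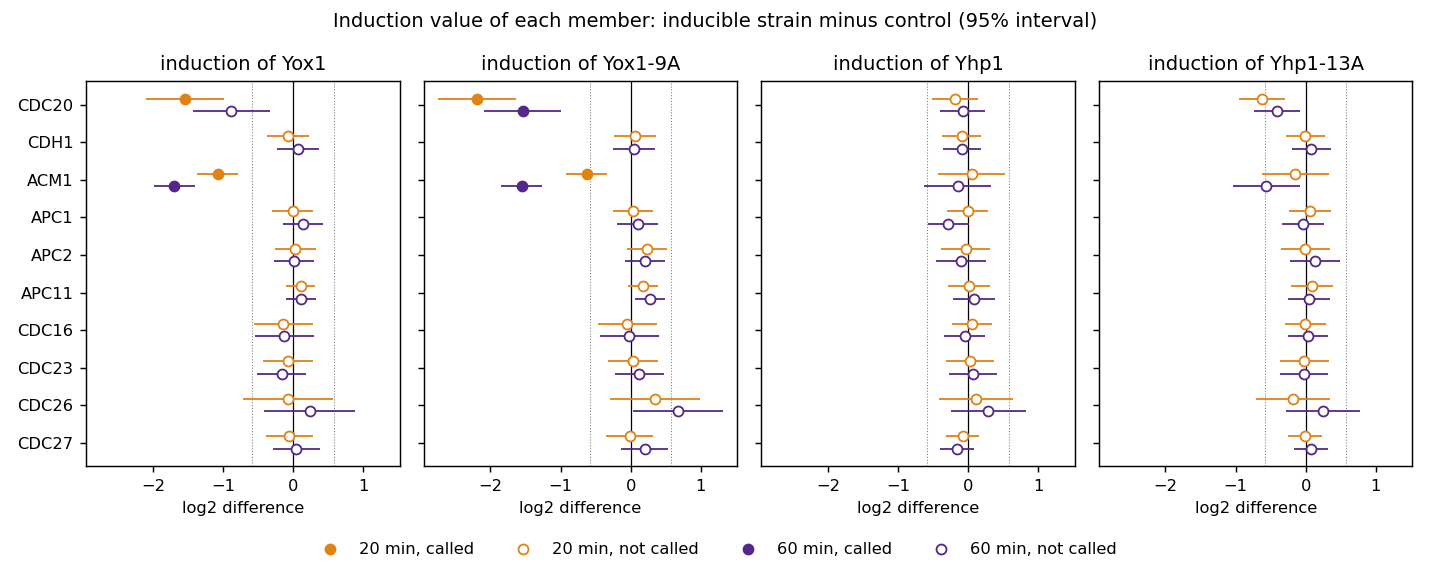
Induction value of each of the 10 members (log2 difference between an inducible strain and its control, horizontal axis) in the 4 inductions, at 20 min (orange) and 60 min (purple), with 95% intervals from limma (n = 3 libraries per group); filled points were called and dotted lines mark 0.58 either way. CDC20 and ACM1 lie left of the line with Yox1 and Yox1-9A, at -1.54 and -1.07 at 20 min of Yox1, and the other 8 members lie between -0.28 and 0.68 throughout.

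CDC20, the anaphase activator, had its lowest level at 20 min of Yox1-9A. In the Z3EVp_YOX1 libraries CDC20 stood at 6.23, 6.04 and 6.48 TPM at 20 min and at 9.79, 11.88 and 12.87 TPM at 60 min, against 24.31, 22.25 and 28.28 TPM at 0 min. In ctrl_YOX1 it stood at 19.84, 19.51 and 20.92 TPM at 20 min and at 19.91, 22.12 and 24.08 TPM at 60 min, against 27.09, 20.03 and 28.42 TPM at 0 min. The induced libraries lay below every 0 min and every control library, and the control's libraries overlapped across the times. In Z3EVp_yox1_9A, CDC20 stood at 4.78, 2.48 and 2.36 TPM at 20 min and at 7.82, 4.59 and 5.62 TPM at 60 min, against 28.47, 19.26 and 19.67 TPM at 0 min. In ctrl_yox1_9A it stood at 17.30, 13.86 and 18.53 TPM at 20 min and at 18.36, 14.93 and 20.46 TPM at 60 min, against 25.91, 17.26 and 19.70 TPM at 0 min. The means of Z3EVp_yox1_9A were 14.3% of the 0 min mean at 20 min and 26.7% at 60 min, and replicate 1 was the highest of its group at all 3 times in this strain. In Z3EVp_YOX1 the corresponding shares were 25.0% and 46.1%.

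After subtraction of the control, CDC20 fell by 1.54 on the log2 scale at 20 min of Yox1 (SE 0.27, 2.90-fold, limma adjusted p = 0.000286), by 2.19 at 20 min of Yox1-9A (SE 0.27, 4.57-fold, adjusted p = 1.24e-06) and by 1.54 at 60 min of Yox1-9A (SE 0.27, 2.91-fold, adjusted p = 0.000183). At 60 min of Yox1 the value was -0.88 (95% interval -1.43 to -0.33, adjusted p = 0.0697), which was not called. That call depended on the setting: it was made with libraries shifted to a common median (-0.91, adjusted p = 0.00498), with a pseudocount of 5 (-0.71, adjusted p = 0.0398), with a block for the replicate number (adjusted p = 0.0202) or for the number within strain (adjusted p = 0.000463), and without subtraction of the control (-1.05, adjusted p = 9.89e-05). The difference between the alleles was not called: the Yox1-9A value minus the Yox1 value of CDC20 was -0.66 at 20 min (interval -1.44 to 0.13) and -0.66 at 60 min (interval -1.44 to 0.12), with adjusted p = 1.00 for each. Of the 10 members, limma called 0 between these alleles at 20 min (1 with an unadjusted p under 0.05, ACM1), where 0% of all genes were called, and 0 at 60 min (0 with an unadjusted p under 0.05), where 0.224% were. YOX1 mRNA itself was lower in Z3EVp_yox1_9A than in Z3EVp_YOX1, as given above, and its part in this difference was not tested. The induction value at 60 min minus that at 20 min was 0.66 for Yox1 (interval 0.10 to 1.21, adjusted p = 0.700). With Yox1-9A this difference was 0.65 (interval 0.10 to 1.21, adjusted p = 0.501), and neither was called in the main fit. Both were called once the replicate number within strain was blocked. In that limma fit Yox1-9A had an adjusted p of 0.0192, and Yox1 one of 0.0308. No other alternative gave a call for either difference.

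**Figure D2:**
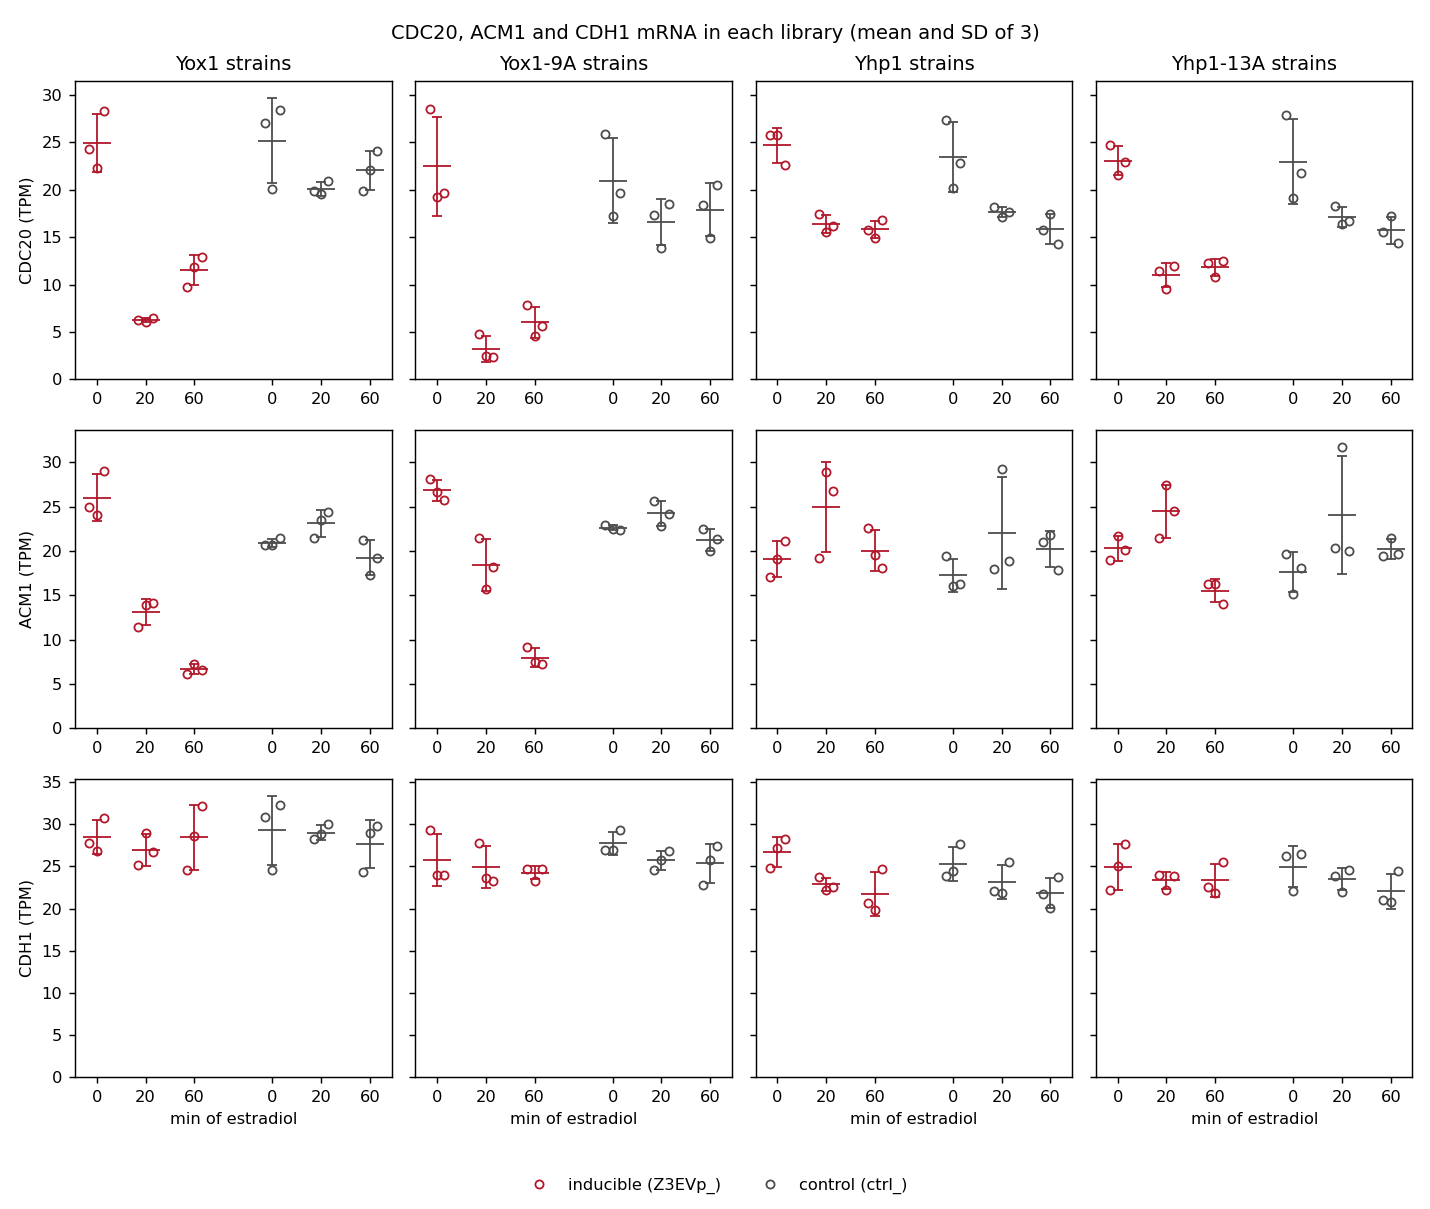
Levels of CDC20, ACM1 and CDH1 (TPM, vertical axis) at 0, 20 and 60 min of estradiol in the inducible strain (red, left) and its control (grey, right) of each pair; circles are libraries, and bars give the mean and SD of 3. CDC20 was lowest at 20 min with Yox1 and Yox1-9A (means 6.25 and 3.21 TPM), ACM1 at 60 min (6.66 and 7.98 TPM), and CDH1 stayed between 19.9 and 32.3 TPM in all libraries.

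With Yhp1, CDC20 was lower after estradiol in the inducible strain and in its control. Z3EVp_YHP1 held 17.39, 15.50 and 16.15 TPM at 20 min and 15.74, 14.94 and 16.77 TPM at 60 min, against 25.81, 25.74 and 22.59 TPM at 0 min. Its control held 18.17, 17.15 and 17.61 TPM at 20 min and 15.74, 17.47 and 14.30 TPM at 60 min, against 27.41, 20.18 and 22.77 TPM at 0 min. In both strains the later libraries lay below all of the 0 min libraries, and the 2 strains overlapped at each later time. The induction values were -0.19 at 20 min (interval -0.51 to 0.14) and -0.08 at 60 min (interval -0.40 to 0.25). The 60 min interval does not account for the pairing of libraries by number, and the value was also not called with the replicate block. The controls of the Yhp1 table changed with estradiol by -0.38 and -0.53 (ctrl_YHP1, 20 and 60 min) and by -0.39 and -0.51 (ctrl_yhp1_13A), with adjusted p between 0.00061 and 0.0068 and all short of 1.5-fold. In the controls of the Yox1 table the changes were -0.30 and -0.17 (ctrl_YOX1) and -0.31 and -0.21 (ctrl_yox1_9A), with adjusted p of 0.215 or more.

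Z3EVp_yhp1_13A was the lower of the Yhp1 strains for CDC20, with 11.42, 9.54 and 11.95 TPM at 20 min and 12.25, 10.75 and 12.45 TPM at 60 min, against 24.74, 21.60 and 22.91 TPM at 0 min. Its control stood at 18.28, 16.38 and 16.65 TPM at 20 min and at 15.52, 17.24 and 14.39 TPM at 60 min, against 27.88, 19.13 and 21.81 TPM at 0 min. The induced libraries lay below all control libraries at both times, but the induction value was -0.62 at 20 min (interval -0.95 to -0.30, adjusted p = 0.101) and -0.41 at 60 min (interval -0.73 to -0.08, adjusted p = 0.865), and neither was called. The 20 min value was called with libraries shifted to a common median (-0.59, adjusted p = 0.00753), with the replicate number as a block (-0.62, adjusted p = 0.0231) and when ctrl_yhp1_13A replicate 1 of 0 min was left out (-0.77, adjusted p = 0.00628). The interval and adjusted p at 60 min do not account for the pairing of libraries by number. With the replicate number as a block the 60 min value was also not called. Yhp1-13A minus Yhp1 was -0.44 at 20 min (interval -0.90 to 0.02) and -0.33 at 60 min (interval -0.79 to 0.13), each with adjusted p = 1.00. Between the Yhp1 alleles limma called 0 members at 20 min, where 0% of genes were called, and 0 at 60 min, where 0.0161% were, with 0 unadjusted p under 0.05 at either time.

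The direct test of Yox1 against Yhp1, in a joint fit of 6247 genes, called CDC20 lower with Yox1 at 20 min, with a difference of -1.35 (SE 0.32, adjusted p = 0.00854). In that comparison 2 of the 10 members were called lower, CDC20 and ACM1, beside 1.44% of all genes. CDC20 was also called lower with Yox1-9A than with Yhp1-13A at 20 min, with a difference of -1.57 (SE 0.32, adjusted p = 0.00187), as the 1 member called beside 0.784% of all genes. With all libraries of 1 replicate number left out, which leaves 2 a group, the call for Yox1 against Yhp1 was lost without number 2 (-1.42, adjusted p = 0.0778) or 3 (-1.31, adjusted p = 0.549), and that for Yox1-9A against Yhp1-13A without number 3 (-1.34, adjusted p = 0.720). At 60 min the difference was -0.80 for the wild type forms (adjusted p = 0.481, not called). It was called with libraries shifted to a common median (-0.89, adjusted p = 0.0391) and with a block for the number within strain (adjusted p = 0.0317). For the mutated forms the difference was -1.14 at 60 min (SE 0.32, adjusted p = 0.0485), where CDC20 and ACM1 were called beside 1.46% of all genes called lower. This call for CDC20 was lost with a pseudocount of 0.1 (adjusted p = 0.0508) or 5 (adjusted p = 0.0792), with no filter on low values (adjusted p = 0.0554), without all libraries of number 1, 2 or 3 (adjusted p = 0.0529, 0.179 and 1.00), and without any of 15 of the 24 libraries, at -1.16 to -0.96. Those 15 were replicates 1 and 3 of ctrl_yox1_9A, Z3EVp_yhp1_13A and ctrl_yhp1_13A at 60 min, replicates 2 and 3 of Z3EVp_yox1_9A at 60 min and of ctrl_yox1_9A and Z3EVp_yhp1_13A at 0 min, replicate 1 of Z3EVp_yox1_9A at 0 min, and replicates 1 and 3 of ctrl_yhp1_13A at 0 min.

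In order of level, CDC20 in the Yox1 table ran from Z3EVp_yox1_9A at 20 min (3.21 ± 1.36 TPM, SD, n = 3) through the same strain at 60 min (6.01 ± 1.65 TPM) and Z3EVp_YOX1 at 20 min (6.25 ± 0.22 TPM) to Z3EVp_YOX1 at 60 min (11.51 ± 1.57 TPM). Neighbours among the first 3 had overlapping libraries, whereas Z3EVp_YOX1 at 60 min overlapped neither the group below it nor the group above it. The other 8 groups averaged between 16.56 and 25.18 TPM, each with libraries that overlapped those of its neighbour. In the Yhp1 table Z3EVp_yhp1_13A at 20 min (10.97 ± 1.26 TPM) and at 60 min (11.82 ± 0.93 TPM) came lowest and did not overlap the next group. The 6 remaining groups after estradiol averaged 15.72 to 17.65 TPM and the 4 groups at 0 min 22.94 to 24.71 TPM, with a gap between these sets. The 2 tables were made separately, so levels were not tested between them.

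CDH1, the G1 activator, varied less between groups than CDC20 and ACM1. In Z3EVp_YOX1 it stood at 25.16, 28.91 and 26.69 TPM at 20 min and at 24.53, 28.63 and 32.19 TPM at 60 min, against 27.83, 26.87 and 30.79 TPM at 0 min. In Z3EVp_YHP1 its libraries of 20 and 60 min lay below all 0 min libraries (means 22.9 and 21.7 against 26.7 TPM). So did those of ctrl_YHP1 at 60 min (21.9 against 25.3 TPM) and ctrl_yox1_9A at 20 min (25.8 against 27.8 TPM). Group means of CDH1 ran from 24.3 to 29.3 TPM among the Yox1 strains and from 21.7 to 26.7 TPM among the Yhp1 strains, and in both tables every group overlapped its neighbour in level. Its 8 induction values lay between -0.09 and 0.08, none was called, and the lowest adjusted p was 0.886.

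ACM1, the Cdh1 inhibitor, was lower at 60 min than at 20 min of Yox1 and Yox1-9A. In Z3EVp_YOX1 it stood at 11.43, 13.87 and 14.10 TPM at 20 min and at 6.12, 7.25 and 6.61 TPM at 60 min, against 24.99, 24.06 and 28.98 TPM at 0 min. In ctrl_YOX1 it stood at 21.46, 23.43 and 24.40 TPM at 20 min and at 21.22, 17.26 and 19.20 TPM at 60 min, against 20.68, 20.62 and 21.42 TPM at 0 min. No induced library reached a control library or a 0 min library, and the 60 min libraries lay below all 20 min libraries. In Z3EVp_yox1_9A it stood at 21.50, 15.67 and 18.13 TPM at 20 min and at 9.22, 7.50 and 7.22 TPM at 60 min, against 28.10, 26.59 and 25.78 TPM at 0 min. In ctrl_yox1_9A it stood at 25.67, 22.85 and 24.20 TPM at 20 min and at 22.46, 20.03 and 21.32 TPM at 60 min, against 22.94, 22.48 and 22.40 TPM at 0 min. Here too the induced libraries lay below all 0 min libraries of the strain and below the control libraries of the same time, but at 20 min replicate 1, at 21.50 TPM, was above 2 control libraries of 60 min. By 60 min the means were 25.6% of 0 min in Z3EVp_YOX1 and 29.7% in Z3EVp_yox1_9A.

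The induction value of ACM1 fell by 1.07 at 20 min of Yox1 (SE 0.14, 2.10-fold, adjusted p = 3.85e-06) and by 1.70 at 60 min (SE 0.14, 3.24-fold, adjusted p = 6.26e-10). With Yox1-9A it fell by 0.62 at 20 min (SE 0.14, 1.54-fold, adjusted p = 0.00718) and by 1.55 at 60 min (SE 0.14, 2.93-fold, adjusted p = 2.71e-09). The call at 20 min of Yox1-9A was close to the threshold: it was lost with a pseudocount of 5 (-0.53), with only the 4 groups of that pair and time in the fit (-0.62, adjusted p = 0.0522) without replicate 2 of Z3EVp_yox1_9A at 20 min (-0.52), and without all libraries of number 2 or 3 (adjusted p = 0.334 and 0.274). Yox1-9A minus Yox1 was 0.45 at 20 min (interval 0.04 to 0.86) and 0.14 at 60 min (interval -0.27 to 0.56), with adjusted p = 1.00 at both times. The 60 min value minus the 20 min value was -0.62 for Yox1 (SE 0.14, adjusted p = 0.0292), and ACM1 was the 1 member called there, beside 0.320% of all genes called lower. For Yox1-9A it was -0.93 (SE 0.14, adjusted p = 0.000155), again the 1 member called, beside 0.815%. The call for Yox1 was lost with a pseudocount of 5 (-0.42) and without any of 8 single libraries, at -0.64 to -0.55, which were Z3EVp_YOX1 replicates 2 and 3 at 20 min and 1 and 3 at 60 min, and ctrl_YOX1 replicates 1 and 2 at 20 min and 1 and 3 at 60 min. It was also lost without all libraries of number 1, 2 or 3 (adjusted p = 0.111, 0.265 and 0.999), and the call for Yox1-9A without those of number 3 (-0.87, adjusted p = 0.110).

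In the Yhp1 strains ACM1 had no called change. Z3EVp_YHP1 held 19.25, 28.92 and 26.77 TPM at 20 min and 22.59, 19.51 and 18.04 TPM at 60 min, against 17.07, 19.07 and 21.14 TPM at 0 min, and its libraries overlapped those of ctrl_YHP1 at each time. Z3EVp_yhp1_13A held 21.46, 27.42 and 24.51 TPM at 20 min and 16.28, 16.24 and 14.03 TPM at 60 min, against 18.99, 21.72 and 20.14 TPM at 0 min. Only its 60 min libraries lay below 0 min and below the control, where ctrl_yhp1_13A held 19.41, 21.51 and 19.66 TPM. That induction value was -0.56 (interval -1.04 to -0.08, unadjusted p = 0.024 and adjusted p = 1.00 in the limma fit). This fit did not pair the libraries by number, and ACM1 was also not called there with the replicate number as a block. ACM1 spread widely at 20 min in the Yhp1 table, where replicate 2 was the highest library in all 4 strains. It stood at 28.92 TPM in Z3EVp_YHP1 and 27.42 TPM in Z3EVp_yhp1_13A, and at 29.24 and 31.73 TPM in their controls, whose other libraries held 17.98 to 20.31 TPM. 

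Against Yhp1, ACM1 was called lower with Yox1 at 20 min, with a difference of -1.12 (SE 0.28, adjusted p = 0.015). The call was lost without replicate 1 or 3 of ctrl_YHP1 at 20 min (-0.999 and -1.03) or replicate 2 of Z3EVp_YHP1 at 20 min (-1.01), and without all libraries of number 1 or 3 (adjusted p = 0.186 and 0.941). At 60 min the difference was -1.55 (SE 0.28, adjusted p = 0.000169), and ACM1 was the 1 member called, beside 1.17% of all genes called lower. This call was lost without all libraries of number 3 (-1.58, adjusted p = 0.0925). Yox1-9A against Yhp1-13A gave -0.47 for ACM1 at 20 min (interval -1.03 to 0.08, not called) and -0.99 at 60 min (SE 0.28, adjusted p = 0.0484). The last call was lost with a pseudocount of 5 (-0.76, adjusted p = 0.105), with no filter on low values (adjusted p = 0.0547), without all libraries of number 1 or 3 (adjusted p = 0.329 and 1.00), and without any of 18 of the 24 libraries, at -1.02 to -0.91. The 6 libraries without which it was kept were, at 60 min, replicate 1 of Z3EVp_yox1_9A, replicate 2 of ctrl_yox1_9A and ctrl_yhp1_13A and replicate 3 of Z3EVp_yhp1_13A, and, at 0 min, replicate 2 of Z3EVp_yhp1_13A and ctrl_yhp1_13A.

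The levels of ACM1 in the Yox1 table ran from Z3EVp_YOX1 at 60 min (6.66 ± 0.57 TPM, SD, n = 3) and Z3EVp_yox1_9A at 60 min (7.98 ± 1.08 TPM), which overlapped, to Z3EVp_YOX1 at 20 min (13.13 ± 1.48 TPM) and Z3EVp_yox1_9A at 20 min (18.44 ± 2.92 TPM), each clear of the group below it. The last of these overlapped ctrl_YOX1 at 60 min, and the 8 higher groups formed an overlapping series up to Z3EVp_yox1_9A at 0 min (26.82 ± 1.18 TPM). In the Yhp1 table the 12 groups averaged 15.5 to 25.0 TPM and every neighbour overlapped.

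The ratio of CDC20 to ACM1 within a library differed between the 2 times of induction. In Z3EVp_YOX1 the ratio averaged 0.96 ± 0.03 at 0 min, 0.48 ± 0.06 at 20 min and 1.73 ± 0.19 at 60 min (SD, n = 3), and the 3 times did not overlap. In ctrl_YOX1 it averaged 1.20 ± 0.20, 0.87 ± 0.05 and 1.16 ± 0.19 at the same times. In Z3EVp_yox1_9A it averaged 0.83 ± 0.16 at 0 min, 0.17 ± 0.05 at 20 min and 0.75 ± 0.12 at 60 min, and its 60 min libraries overlapped those of 0 min. In Z3EVp_YHP1 it averaged 1.31, 0.68 and 0.80 at 0, 20 and 60 min, with overlap between 20 and 60 min. In Z3EVp_yhp1_13A it averaged 1.15, 0.46 and 0.77, without that overlap. The ratio was also lower after estradiol in ctrl_YHP1 (1.36, 0.84 and 0.78) and ctrl_yhp1_13A (1.30, 0.75 and 0.78). The ratio of ACM1 to CDH1 was 0.24 ± 0.03 in Z3EVp_YOX1 and 0.33 ± 0.04 in Z3EVp_yox1_9A at 60 min, against 0.91 ± 0.03 and 1.05 ± 0.08 in the same strains at 0 min. These ratios restate the levels above and were not tested.

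**Figure D3:**
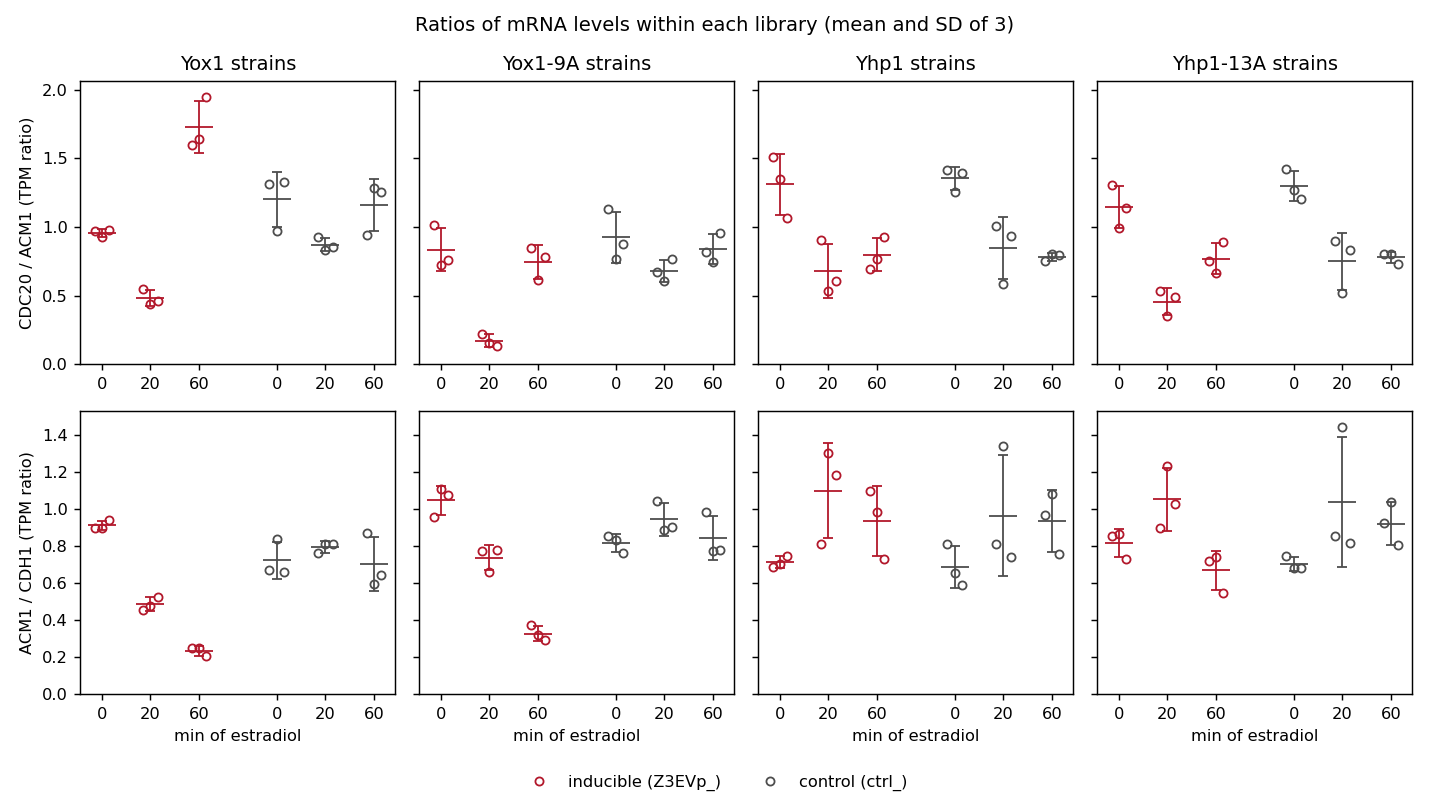
Ratio of CDC20 to ACM1 (top) and of ACM1 to CDH1 (bottom), each a ratio of TPM within a library (vertical axis), at 0, 20 and 60 min of estradiol in the inducible strain (red, left) and the control (grey, right) of each pair; circles are libraries, and bars give the mean and SD of 3. With Yox1 the CDC20 to ACM1 ratio was 0.48 at 20 min and 1.73 at 60 min, and the ACM1 to CDH1 ratio was lowest at 60 min in both Yox1 pairs.

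The 7 subunit genes as a set spanned a wider range of levels than any of them did between groups, although some, such as APC2 and CDC16, had similar levels. By group mean, APC11, the RING subunit, was highest, at 44.8 to 56.4 TPM in the Yox1 table and 39.2 to 47.98 TPM in the other, and APC1, the scaffold, was lowest, at 5.8 to 7.7 TPM and 4.6 to 6.6 TPM. In the Yox1 table CDC26 ranged from 19.7 to 39.7 TPM and CDC27 from 19.9 to 23.6 TPM, APC2 from 13.4 to 17.04 TPM, CDC16 from 13.7 to 17.5 TPM and CDC23 from 9.4 to 12.03 TPM. Between the highest and the lowest group of a table, 6 of the 7 differed by 1.19-fold to 1.43-fold, and CDC26 by 2.02-fold in the Yox1 table, against 7.86-fold for CDC20 and 4.03-fold for ACM1. Across the 8 inductions, CDH1 and the 7 subunits gave 64 values between -0.28 and 0.68, of which limma called 0 and 2 had an unadjusted p under 0.05, APC11 (0.28, SE 0.10, adjusted p = 0.116) and CDC26 (0.68, SE 0.31, adjusted p = 0.251), both at 60 min of Yox1-9A.

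CDC26, the small subunit, was the most variable of the subunit genes. In Z3EVp_yox1_9A it stood at 34.29, 25.61 and 32.28 TPM at 60 min, against 33.55, 14.72 and 18.55 TPM at 0 min, and the groups overlapped through replicate 1 of 0 min. In ctrl_yox1_9A it stood at 22.38, 19.86 and 29.09 TPM at 60 min, against 30.14, 24.32 and 24.82 TPM at 0 min. Without replicate 1 of Z3EVp_yox1_9A at 0 min, the induction value was 1.00 (adjusted p = 0.0255) and CDC26 was called higher. Replicate 1 was also the highest 0 min library for CDC26 in 7 of the 8 strains. Its intervals were correspondingly wide, for example -0.41 to 0.88 at 60 min of Yox1.

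Before estradiol no member was called between strains. Over the 4 comparisons of an inducible strain with its control and the 2 of a mutated with a wild type allele at its own promoter, the 60 member values lay between -0.31 and 0.30, limma called 0, and 3 had an unadjusted p under 0.05. Between inducible strain and control, limma called 0.112% of all genes for Yox1, 0.320% for Yox1-9A, 0.144% for Yhp1 and 0.144% for Yhp1-13A, and between alleles at their own promoter 0% for both repressors. YOX1 averaged 30.6 TPM in Z3EVp_YOX1 against 116 TPM in ctrl_YOX1 at 0 min, so the inducible strains started below the native level of their repressor. Though not called, ACM1 at 0 min was higher in every Z3EVp_YOX1 library (24.06 to 28.98 TPM) than in ctrl_YOX1 (20.62 to 21.42 TPM). The same held for Z3EVp_yox1_9A (25.78 to 28.10 TPM) against ctrl_yox1_9A (22.40 to 22.94 TPM), while the Yhp1 pairs overlapped. The ACM1 induction values and shares of 0 min start from these unequal levels.

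Other genes of the pathway were taken from lists of further APC/C subunits, substrates, spindle checkpoint genes and ubiquitin enzymes. Of the other subunits and the meiotic activator AMA1, 6 of 7 passed the filter (all but AMA1) and limma called 0 in any induction, with 1 unadjusted p under 0.05: APC9 at 60 min of Yox1-9A (0.50, SE 0.14, adjusted p = 0.0277, short of 1.5-fold). None of the 6 checkpoint genes (MAD1, MAD2, MAD3, BUB1, BUB3 and MPS1), which restrain Cdc20 until chromosomes attach, and none of the 4 ubiquitin-conjugating enzymes (UBC1, UBC4, UBC5 and CDC34) was called, with 0 unadjusted p under 0.05 in both lists in every induction. Of all tested genes, 2.56%, 2.75%, 2.35% and 4.33% were called either way in the 4 Yox1 and Yox1-9A inductions. In the Yhp1 and Yhp1-13A inductions the share was 0.498% or less. In lists this short, 0 calls is near those shares.

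Of 16 genes for reported substrates and separase, limma called 4 lower at 20 min of Yox1, 1 at 60 min of Yox1, 4 at 20 min of Yox1-9A, 3 at 60 min of Yox1-9A and 0 in the Yhp1 and Yhp1-13A inductions, where 0 and 0 (Yhp1) and 2 and 2 (Yhp1-13A) had an unadjusted p under 0.05 at 20 and 60 min. SPO12, an activator of the early anaphase release of Cdc14, was called in all 4 Yox1 inductions, at -1.26 and -1.04 with Yox1 (adjusted p = 0.0025 and 0.017, 20 and 60 min) and -2.30 and -2.10 with Yox1-9A (adjusted p = 4e-07 and 8.7e-07). CLB2, the main mitotic cyclin, was called at 20 min of Yox1 (-0.93) and at both times of Yox1-9A (-1.58 and -0.85). IQG1, the IQGAP of the cytokinetic ring, was called at the same times (-1.10, -1.57 and -1.26), and ASE1, a spindle midzone bundler, at 20 min of each (-0.77 and -0.76). The securin gene PDS1 and the separase gene ESP1 were not called, with values of 0.09 and 0.00 at 20 min of Yox1. Over all tested genes, 2.40%, 2.38%, 2.17% and 3.18% were called lower in the 4 Yox1 and Yox1-9A inductions. The list's medians there were -0.22, -0.45, -0.04 and -0.22, beside 0.02, 0.05, 0.07 and 0.13 over all tested genes.

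**Figure D4:**
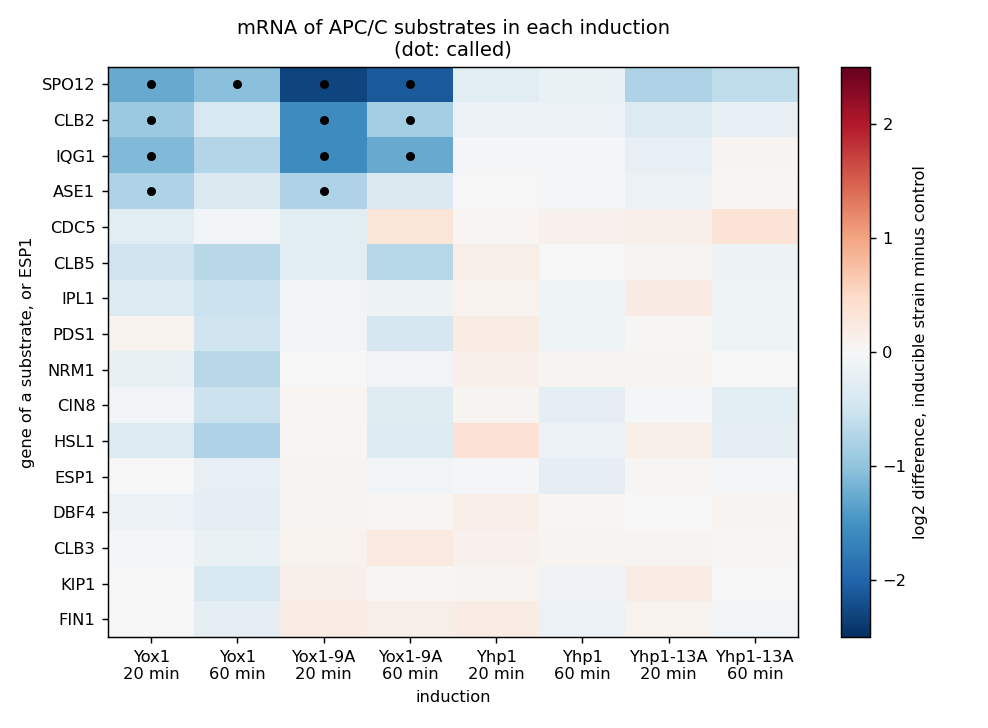
Induction value (log2 difference between an inducible strain and its control, colour) of 16 genes for APC/C substrates and separase (rows) in the 8 inductions (columns); a dot marks a call, and rows are ordered by the value at 20 min of Yox1-9A. SPO12, CLB2, IQG1 and ASE1 carry all the dots, and none falls in the 4 columns of Yhp1 and Yhp1-13A.

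The genes whose levels followed CDC20 most closely over the 12 group means of the Yox1 table were IQG1 (Pearson r = 0.989), HOF1 (0.988), ASE1 (0.988), KIN3 (0.987) and SPO12 (0.987). In the Yhp1 table the same genes had r with CDC20 of 0.677, 0.977, 0.758, 0.958 and 0.922. ACM1 was most like ASF1 (0.979), CIN2 (0.972), ELO1 (0.970), AXL2 (0.968) and MSA2 (0.968), with r of 0.637, 0.458, 0.830, 0.651 and 0.765 in the Yhp1 table. CDH1 was most like HRR25 (0.960), TIP41 (0.955), SSN3 (0.945), CBP1 (0.943) and RSC2 (0.943). CDC20 and ACM1 had r = 0.58 with each other among the Yox1 groups and -0.25 among the Yhp1 groups. These are descriptions over groups that share strains and libraries, with no test.

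Counts for lists of stage-specific genes stand beside these results. The shares of all tested genes called lower were 2.40% and 2.38% at 20 and 60 min of Yox1, 2.17% and 3.18% with Yox1-9A, 0.0803% and 0.0642% with Yhp1, and 0.337% and 0.482% with Yhp1-13A. Of 10 G2/M genes, which include CLB2, IQG1, HOF1 and KIN3, 6, 3, 6 and 6 were called lower at 20 and 60 min of Yox1 and 20 and 60 min of Yox1-9A (medians -0.89, -0.51, -1.49 and -1.02), and 0, 0, 3 and 3 in the Yhp1 and Yhp1-13A inductions in the same order of times. Of 8 G1/S genes, 3, 5, 0 and 6 were called lower in the 4 Yox1 inductions (medians -0.61, -1.09, -0.31 and -1.17), and limma called 0 in each Yhp1 and Yhp1-13A induction, with 0, 0, 0 and 1 unadjusted p under 0.05. Of 8 histone genes, 7 were called lower at 60 min of Yox1 (median -0.78) and 0 in the other 7 inductions, although these genes come in near-identical pairs between which reads can be split. Of 8 M/G1 genes, 1, 1, 1 and 6 were called lower in the Yox1 and Yox1-9A inductions and 0 in each Yhp1 and Yhp1-13A induction, with 1, 0, 1 and 0 unadjusted p under 0.05 in limma. The part of these stages in the values of CDC20 and ACM1 was not tested.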

How the data were processed

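The values are TPM that the authors deposited in 2 tables of 36 libraries each, one for the Yox1 strains and one for the Yhp1 strains. According to the submitters' processing notes and the study's methods, the authors used STAR 2.5.3a for alignment to build R64-1-1 and featureCounts 1.5.2 for counting fragments per gene. The labels speak of polyA depletion and the methods of purification. Library strand is not stated.

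The values log2(TPM + 1) were modelled by limma (version 3.58.1, R 4.3.3) with a mean-variance trend, 12 groups in 1 model per table, after removal of genes that averaged under 1 TPM (6255 and 6230 genes left). A joint model of all 24 groups and 6247 genes gave the comparison of Yox1 and Yhp1, each induction being taken against the controls of its own table. In all, 42 contrasts were fitted, p-values are two-sided, and Benjamini-Hochberg adjustment ran over all genes of a contrast. The fit was also run on simulated data in which each library deviated independently. Those data lack the shared deviation of same-number libraries described below, so they do not bear on pairing. TPM without counts give no depth, so precision rests on the spread of 3 libraries. The labels give replicates 1 to 3. Libraries of the same number deviated together in all 18 pairs (r above 0.1) only in the Yhp1 and Yhp1-13A inductions at 60 min, where the numbers were taken to pair the libraries.

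The members and the gene lists were chosen with earlier results of these data known. Named genes are the 10 members, YOX1 and YHP1 as checks, called genes of the pathway lists, examples among the stage lists, and the 5 genes most like CDC20, CDH1 and ACM1 in the Yox1 table. AMA1, APC9, PDS1 and ESP1 are named beside these, chosen after their values were seen. Alternatives were other pseudocounts, other filters, libraries shifted to a common median, no variance trend, replicate blocks, only the 4 groups of a pair and time, no subtraction of the control, and leaving out each library. Leaving out all libraries of 1 replicate number was added after the data were seen. Motifs were sought in 6000 promoters of protein-coding genes, each the 500 bases before the start codon without regard to neighbouring genes. A promoter sequence of another member is not reported here.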

Additional observations from a re-analysis of the deposited data

Results flagged for a closer look

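The following 8 differences between inductions, each tested as an interaction in limma with n = 3 libraries per group, passed the thresholds among the 10 members. Beside them, 0.320% (Yox1) and 0.815% (Yox1-9A) of all tested genes were called lower at 60 min than at 20 min. For Yox1 against Yhp1 the shares called lower were 1.44% at 20 min and 1.17% at 60 min. For Yox1-9A against Yhp1-13A they were 0.784% and 1.46%. ACM1 was lower at 60 min than at 20 min of induction, with differences of -0.62 for Yox1 (adjusted p = 0.0292) and -0.93 for Yox1-9A (adjusted p = 0.000155). CDC20 was lower with Yox1 than with Yhp1 at 20 min (difference -1.35, adjusted p = 0.00854), and lower with Yox1-9A than with Yhp1-13A, with differences of -1.57 at 20 min (adjusted p = 0.00187) and -1.14 at 60 min (adjusted p = 0.0485). ACM1 was lower with Yox1 than with Yhp1, with differences of -1.12 at 20 min (adjusted p = 0.015) and -1.55 at 60 min (adjusted p = 0.000169), and lower with Yox1-9A than with Yhp1-13A, with a difference of -0.99 at 60 min (adjusted p = 0.0484). Each of the 8 calls was lost under at least 1 alternative, as given above. That for CDC20 with Yox1-9A against Yhp1-13A at 60 min was lost in 21 of 35. Groups of 3 are too small for a test of single outlying libraries.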

How the results depend on the processing

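Over 5720 values of the members under alternatives, 5633 stayed on the same side of the threshold, 71 lost a call and 16 gained one. No value that was called in either setting turned direction, while small values that were not called could change sign (CDC20 at 60 min of Yhp1 ran from -0.23 to 0.16 with libraries left out). The number of members called at 60 min of Yox1 was 2 in place of 1 with a pseudocount of 5, a common median, the replicate block (CDC20 -0.88, adjusted p = 0.0202), the replicate block within strain (adjusted p = 0.000463) and no subtraction of the control. At 20 min of Yox1-9A it was 1 in place of 2 with a pseudocount of 5, with only the 4 groups of the pair and time, and with no subtraction. It was 1 in place of 0 at 60 min of Yhp1 with no subtraction, at 20 min of Yhp1-13A with a common median, the replicate block or no subtraction, and at 60 min of Yhp1-13A with no subtraction. Leaving out libraries gave 2 to 2, 1 to 1, 1 to 2 and 2 to 3 members called at 20 and 60 min of Yox1 and of Yox1-9A, and 0 to 1 at 20 min of Yhp1-13A. Over all genes, no subtraction called 1088, 576, 1186, 856, 1003, 416, 1032 and 450 genes in the 8 inductions in the order used above, and the main counts were 160, 172, 147, 271, 6, 5, 22 and 31. Only the 4 groups called 3 and 11 at 20 min of Yhp1 and Yhp1-13A, and the replicate block called 48 at 60 min of Yhp1-13A. Leaving out libraries gave 103 to 160, 121 to 183, 77 to 172, 168 to 294, 2 to 7, 2 to 8, 8 to 29 and 17 to 32. In the other 6 inductions 11 to 16 of 18 same-number pairs correlated above 0.1, so the numbers were not taken to pair all libraries there, although the Yhp1 and Yhp1-13A inductions at 20 min share their 0 min libraries with those at 60 min. Over the 8 inductions the median r was 0.15 to 0.40 for same-number pairs and -0.23 to -0.06 for pairs of different numbers. The study's methods describe samples taken before estradiol and 20 and 60 min after it, without saying what the numbers follow. The main fit did not use the numbers, so its intervals and adjusted p do not account for such pairing. The causes were not tested. TPM carry no read counts, so counting error at low levels is unknown.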
